A study of Mus musculus with 18 samples.

Results

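Feedback inhibitors of inflammatory signalling in macrophages were followed through 10 genes chosen by symbol: Tnfaip3, Tnip1, Traf1, Irak3, Dusp1, Dusp2, Socs3, Zc3h12a, Ier3 and Zfp36. Of these, 9 were found among the 11164 genes analysed once Ensembl gene identifiers were matched to GENCODE M21 symbols, and Zfp36 was not analysed here. All 9 also passed the filter on low values, which asked for an average of 1 RPKM or more in any of the groups and left 9934 genes. RPKM is the number of reads of a gene scaled to its length and to the total of its library.

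The libraries were RNA sequencing of macrophages derived from the bone marrow of C57BL/6J wild-type (WT), BAFF KO and APRIL KO mice. BAFF and APRIL are kindred cytokines of the TNF family that sustain B cells and plasma cells. Macrophages of each genotype were unstimulated or received 10 ng/ml lipopolysaccharide (LPS), a component of the bacterial outer membrane, for 4 h, and all labels also name preterm birth at day 16 of gestation. The 6 groups held 9 libraries, numbered 13 to 21 in the descriptions. Each genotype had 1 unstimulated library (13 in WT, 16 in BAFF KO and 19 in APRIL KO). With LPS there were 2, namely 14 and 15 in WT, 17 and 18 in BAFF KO, and 20 and 21 in APRIL KO. The 2 columns that each library has in the table were averaged. Whether the libraries of a group come from separate animals or cultures is not in the labels. The p-values therefore reflect only how far these libraries spread, which may be technical. How the knockouts were made is not given in the sources used here, and the BAFF gene itself was not analysed here, which leaves that label unchecked on its target.

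Libraries held 5121833 to 6020780 reads in listed genes. All 8 listed macrophage markers were present, with a summed level of 4527 to 7603 RPKM per library. Markers of other cells also varied. The 9 skeletal muscle markers in the table summed to 191 to 284 RPKM in the WT libraries and to 15.8 to 52.1 in the knockout libraries. The 10 neutrophil markers summed to 1345 to 1703 RPKM in WT with LPS, 2325 to 2706 in BAFF KO with LPS and 1594 to 1629 in APRIL KO with LPS, and each had reads in every library. Single muscle markers (Ckm, Myh4 or Ttn) had 0 reads in 5 of the 6 knockout libraries. Stromal markers summed to 433 RPKM in library 21 and 224 in library 14, against 7.60 to 130.4 elsewhere. These are bulk samples, in which fewer cells of a type and less RNA per cell cannot be told apart.

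Bacterial LPS binds TLR4, which signals through adaptors that include MyD88 and through the IRAK kinases. Ubiquitin chains formed downstream of them help switch on the kinases of the NF-κB and MAP kinase pathways. The same pathways transcribe their own brakes. A20 (Tnfaip3) edits ubiquitin chains, with ABIN1 (Tnip1) as its partner. IRAK-M (Irak3) blocks the receptor complex, the phosphatases DUSP1 and DUSP2 switch off MAP kinases, SOCS3 blocks signalling from the IL-6 receptor, and Regnase-1 (Zc3h12a) and TTP (Zfp36) destroy cytokine mRNAs.

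The promoters of 5 of the genes are printed because they carry matches to motifs of the factors that LPS activates. They are the 250 bases before the RefSeq start on the strand of the gene, in build GRCm38.p6, with the match in capitals. The match is the kappaB motif in Tnfaip3, Tnip1 and Ier3, the gamma-activated site TTCNNNGAA in Socs3 and the cAMP response element TGACGTCA in Dusp1. Tnfaip3 is at chr10:19015411-19015660 (minus strand), Tnip1 at chr11:54962941-54963190 (minus), Ier3 at chr17:35821463-35821712 (plus), Socs3 at chr11:117969367-117969616 (minus) and Dusp1 at chr17:26508473-26508722 (minus).
Tnfaip3: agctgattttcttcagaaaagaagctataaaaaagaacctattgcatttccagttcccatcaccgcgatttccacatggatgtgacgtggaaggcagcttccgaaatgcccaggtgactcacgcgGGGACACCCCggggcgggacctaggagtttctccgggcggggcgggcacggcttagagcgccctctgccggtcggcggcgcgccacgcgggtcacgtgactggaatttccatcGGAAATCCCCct
Tnip1: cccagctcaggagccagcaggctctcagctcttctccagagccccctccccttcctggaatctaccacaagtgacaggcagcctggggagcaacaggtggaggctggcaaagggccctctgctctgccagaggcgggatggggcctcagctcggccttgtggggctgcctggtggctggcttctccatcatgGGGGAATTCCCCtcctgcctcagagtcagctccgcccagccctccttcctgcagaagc
Ier3: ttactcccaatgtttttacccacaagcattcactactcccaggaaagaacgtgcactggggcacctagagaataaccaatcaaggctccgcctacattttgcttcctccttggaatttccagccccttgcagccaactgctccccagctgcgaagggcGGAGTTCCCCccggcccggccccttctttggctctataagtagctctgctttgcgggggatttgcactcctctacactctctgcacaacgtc
Socs3: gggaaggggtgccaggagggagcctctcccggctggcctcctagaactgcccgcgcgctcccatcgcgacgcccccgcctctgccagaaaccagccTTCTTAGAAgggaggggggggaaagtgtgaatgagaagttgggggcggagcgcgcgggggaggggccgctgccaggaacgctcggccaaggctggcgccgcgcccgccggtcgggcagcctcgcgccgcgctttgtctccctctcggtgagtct
Dusp1: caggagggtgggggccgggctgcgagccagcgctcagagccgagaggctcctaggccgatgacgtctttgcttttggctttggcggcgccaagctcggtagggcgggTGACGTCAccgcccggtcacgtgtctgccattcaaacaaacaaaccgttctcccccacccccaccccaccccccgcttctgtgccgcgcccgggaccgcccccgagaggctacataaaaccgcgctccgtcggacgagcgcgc
RefSeq promoters were found for all 10 genes, as 12 windows of 300 bases (250 before the start and 50 after it). Both strands were searched. The kappaB motif occurred in windows of 3 of the 10 genes: 2 separate matches in Tnfaip3, 3 overlapping matches in Tnip1 and 1 in Ier3. Of 32851 promoter windows of the same length, 8.46% held it. The gamma-activated site was in 3 of the 10 genes (Tnip1, Socs3 and Zfp36) and in 8.3% of all windows. The cAMP response element was in Dusp1 alone of the 10 and in 1.79% of all windows. The AP-1 motif TGANTCA was in Tnfaip3 alone of the 10 and in 7.81% of all windows. These matches describe the sequence only.

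How LPS moved these genes was examined first. All 9 genes were higher with LPS in the test averaged over genotypes, although for Dusp1 the rise was small. In the same test 18.1% of the 9934 genes were higher and 62.1% were lower. The median change on the log2(RPKM + 1) scale was 1.74 for the 9 genes and -0.44 for all genes. RPKM is a share of the library, so all genes of a library are tied to its total. The median of all genes moved to -0.065 when libraries were scaled by their median ratio. Under that scaling 28.8% of all genes were higher and 33.0% lower, and 9 of 9 genes were still higher. In single genotypes, 8 of 9 genes were higher in WT (13.7% of all genes), 8 of 9 in BAFF KO (16.0%) and 9 of 9 in APRIL KO (14.4%). Dusp1 was the gene that missed in WT and in BAFF KO. Markers of macrophages and of other cells moved with LPS too. Of 10 neutrophil markers 9 were lower (8 under median ratio scaling), with a summed level of 2735 to 5780 RPKM unstimulated and 1345 to 2706 with LPS. Of 7 monocyte markers 4 were lower and 0 higher, or 4 lower and 2 higher under that scaling. Of the 8 macrophage markers 4 were lower and 2 higher, or 2 lower and 4 higher under that scaling. The macrophage markers summed to 6904 to 7603 RPKM unstimulated and 4527 to 5211 with LPS. The part of these cell types in the LPS changes of the 9 genes was not tested. By mean level in the 6 LPS libraries the order was Tnip1 (238 ± 58.1 RPKM, SD), Tnfaip3 (151 ± 25.1) and Traf1 (107 ± 11.5), followed by Dusp1 (29.0 ± 8.31), Irak3 (28.5 ± 5.83), Dusp2 (27.4 ± 2.42), Socs3 (27.0 ± 9.67), Zc3h12a (26.4 ± 6.40) and Ier3 (18.5 ± 6.90). The last 6 genes overlapped in range. So did Tnip1 (from 159 RPKM) with Tnfaip3 (116 to 183), and Tnfaip3 with Traf1 (up to 124).

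**Figure D1:**
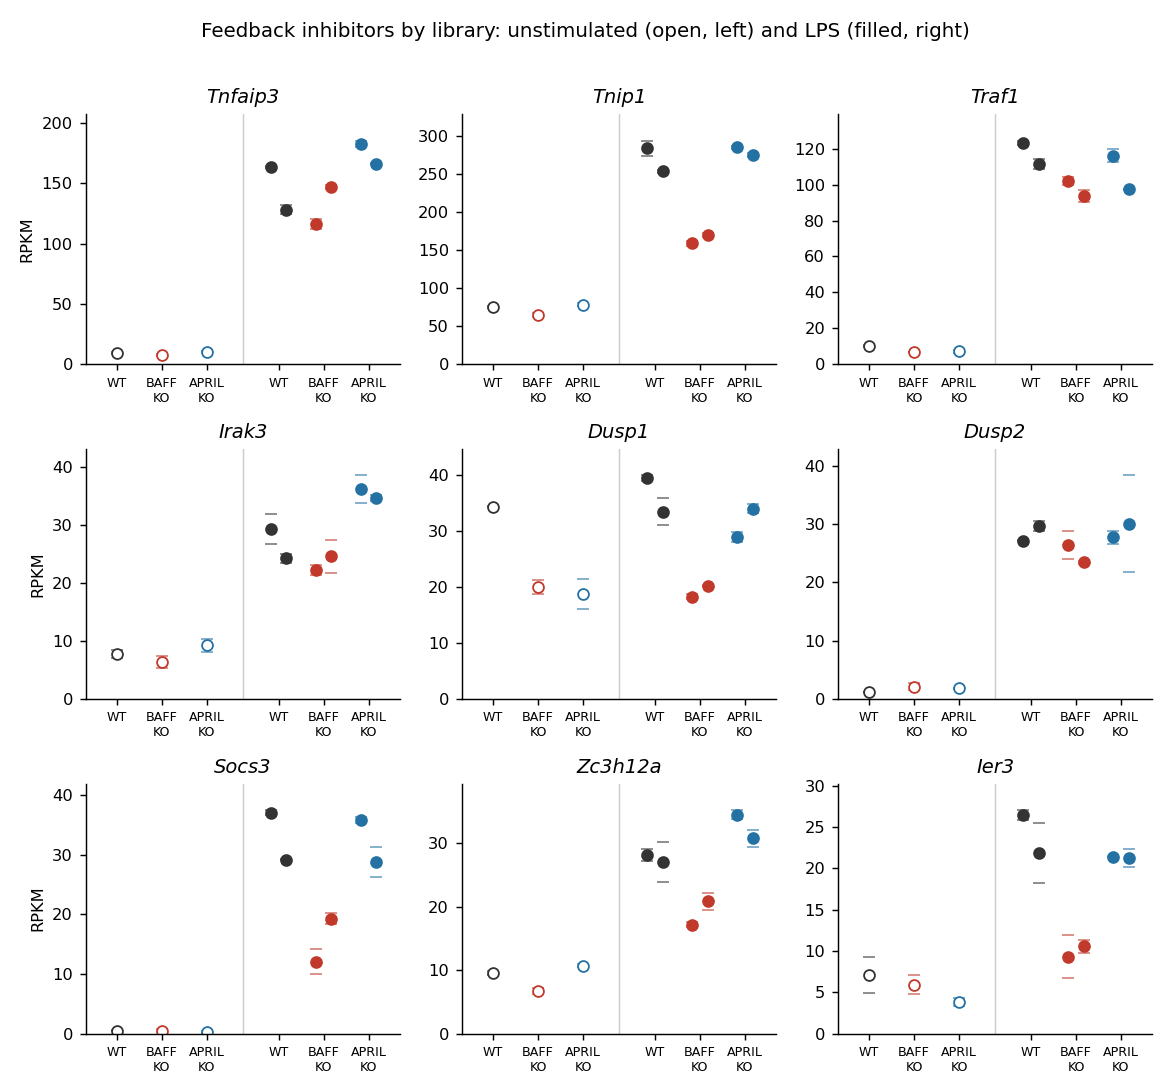
Level of each gene in RPKM (linear axis from 0) by genotype, with unstimulated libraries as open points on the left and LPS libraries as filled points on the right. Points are the mean of the 2 columns of a library and dashes are the columns themselves. The BAFF KO libraries with LPS lie below all 4 other LPS libraries for Tnip1, Dusp1, Dusp2, Socs3, Zc3h12a and Ier3.

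Among the ubiquitin regulators, Tnfaip3 (ENSMUSG00000019850, chromosome 10, 19000910 to 19015657, minus strand) encodes A20, which removes activating ubiquitin chains. Its level unstimulated was 9.09 RPKM in WT, 7.38 in BAFF KO and 10.3 in APRIL KO. With LPS it was 164 and 128 RPKM in WT, 116 and 147 in BAFF KO, and 183 and 166 in APRIL KO. Every LPS library was thus above every unstimulated one, and with LPS the BAFF KO libraries overlapped the WT libraries. The averaged LPS change of Tnfaip3 was 3.93 ± 0.11 (SE) on the log2 scale (limma, Benjamini-Hochberg adjusted p = 3.5e-08). It was 3.85 in WT, 3.98 in BAFF KO and 3.95 in APRIL KO.

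Tnip1 (ENSMUSG00000020400, chromosome 11, 54910785 to 54962917, minus strand) encodes ABIN1, which binds A20 and ubiquitin chains. It had the highest unstimulated level of the 9 genes, at 74.7 RPKM in WT, 64.1 in BAFF KO and 78.0 in APRIL KO. With LPS it was 284 and 253 RPKM in WT, 159 and 169.6 in BAFF KO, and 285 and 275 in APRIL KO. The BAFF KO libraries were apart from and below the other 4 LPS libraries. Averaged over genotypes, Tnip1 changed with LPS by 1.67 ± 0.06 (SE; limma adjusted p = 2.3e-07). The change was 1.83 in WT, 1.34 in BAFF KO and 1.83 in APRIL KO. A processed pseudogene, Gm12230, lies within Tnip1 on the other strand.

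Traf1 (ENSMUSG00000026875, chromosome 2, 34941750 to 34961772, minus strand) encodes an adaptor of tumour necrosis factor receptors that NF-κB induces. Unstimulated levels were 9.90 RPKM in WT, 6.62 in BAFF KO and 7.12 in APRIL KO. With LPS they were 124 and 112 RPKM in WT, 102 and 93.8 in BAFF KO, and 116 and 97.5 in APRIL KO. The BAFF KO libraries were below WT with LPS but overlapped those of APRIL KO. For Traf1 the averaged LPS change was 3.62 ± 0.08 (SE; limma adjusted p = 1.2e-08).

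At the receptor, Irak3 (ENSMUSG00000020227, chromosome 10, 120141648 to 120202130, minus strand) encodes IRAK-M, a kinase-like protein that holds back the IRAK kinases. Unstimulated levels were 7.70 RPKM in WT, 6.41 in BAFF KO and 9.21 in APRIL KO. With LPS they were 29.3 and 24.3 RPKM in WT, 22.2 and 24.6 in BAFF KO, and 36.2 and 34.7 in APRIL KO. The APRIL KO libraries were the highest, and BAFF KO overlapped WT. LPS changed Irak3 on average by 1.74 ± 0.09 (SE; limma adjusted p = 1.2e-06). Irak3 shares 192 of its 3676 exonic bases with Tmbim4, on the opposite strand. The labels name both a directional and another library kit, so whether reads of the pair were separated by strand is unclear.

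Dusp1 and Dusp2 encode MAP kinase phosphatases. Dusp1 (ENSMUSG00000024190, chromosome 17, 26505590 to 26562128, minus strand) encodes a phosphatase that acts on p38 and JNK. It was 34.3 RPKM in the unstimulated WT library and lower in the other unstimulated libraries, at 20.0 in BAFF KO and 18.7 in APRIL KO. With LPS it was 39.4 and 33.4 RPKM in WT, 18.3 and 20.2 in BAFF KO, and 28.9 and 34.0 in APRIL KO. With LPS, BAFF KO was thus no higher than about the unstimulated knockouts, and below the other 4 libraries. The averaged LPS change of Dusp1 was 0.25 ± 0.09 (SE; limma adjusted p = 0.032). It was 0.08 in WT (adjusted p = 0.67), -0.05 in BAFF KO (0.78) and 0.71 in APRIL KO (0.0052). The averaged call was lost with a replicate block (0.22, adjusted p = 0.1), with the lower index column of each library alone (adjusted p = 0.068) and without library 14 (0.065), 18 (0.072), 19 (0.91) or 21 (0.071). Without library 19 the change was 0.013. Under median ratio scaling the change in WT was 0.55 (adjusted p = 0.022) and that in BAFF KO 0.36 (0.087). Dusp1 shares 11 of 3311 exonic bases with Ergic1 on the opposite strand.

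Dusp2 (ENSMUSG00000027368, chromosome 2, 127336159 to 127338376, plus strand) encodes a nuclear phosphatase of MAP kinases. It rose from 1.16 RPKM in WT, 2.10 in BAFF KO and 1.79 in APRIL KO. With LPS it was 27.2 and 29.7 RPKM in WT, 26.4 and 23.4 in BAFF KO, and 27.8 and 30.1 in APRIL KO. All other LPS libraries were slightly above BAFF KO. LPS changed Dusp2 on average by 3.41 ± 0.09 (SE; limma adjusted p = 2.7e-08). The 2 columns of library 21 were 38.3 and 21.8 RPKM, the widest gap of Dusp2 in any library.

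Socs3 (ENSMUSG00000053113, chromosome 11, 117966079 to 117970047, minus strand) encodes the inhibitor of JAK kinases at the IL-6 receptor. Unstimulated libraries held 4 to 6 reads of it, worth 0.473 RPKM in WT, 0.503 in BAFF KO and 0.291 in APRIL KO. With LPS it was 37.0 and 29.1 RPKM in WT, 12.1 and 19.3 in BAFF KO, and 35.7 and 28.8 in APRIL KO. The BAFF KO libraries were below the other 4. The averaged LPS change was 4.21 ± 0.16 (SE; limma adjusted p = 2.8e-07), the largest of the 9 genes. The added value of 1 RPKM holds down the change of a gene this low when unstimulated.

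Zc3h12a (ENSMUSG00000042677, chromosome 4, 125118423 to 125127840, minus strand) encodes Regnase-1, the nuclease that cuts cytokine mRNAs such as that of IL-6. Unstimulated levels were 9.57 RPKM in WT, 6.72 in BAFF KO and 10.7 in APRIL KO. With LPS they were 28.1 and 27.0 RPKM in WT, 17.1 and 20.9 in BAFF KO, and 34.5 and 30.8 in APRIL KO. The 3 genotypes did not overlap with LPS, and BAFF KO was lowest. For Zc3h12a the averaged LPS change was 1.44 ± 0.09 (SE; limma adjusted p = 3.8e-06).

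Ier3 (ENSMUSG00000003541, chromosome 17, 35821684 to 35822923, plus strand) encodes a short-lived early response protein that NF-κB induces. Unstimulated levels were 7.13 RPKM in WT, 5.93 in BAFF KO and 3.86 in APRIL KO. With LPS they were 26.5 and 21.9 RPKM in WT, 9.33 and 10.6 in BAFF KO, and 21.4 and 21.3 in APRIL KO. With LPS, BAFF KO lay between the 7.13 RPKM of unstimulated WT and the 21.3 of the lowest other LPS library. Ier3 is read from few reads: the BAFF KO libraries with LPS held 48 reads (95% Poisson interval 35.4 to 63.6) and 68 (52.8 to 86.2). The WT libraries with LPS held 156 (132 to 182) and 132 (110.4 to 156.5), and these intervals cover counting error only. Averaged over genotypes, Ier3 changed with LPS by 1.49 ± 0.09 (SE; limma adjusted p = 4.3e-06). The change was 1.62 in WT, 0.66 in BAFF KO and 2.20 in APRIL KO. The BAFF KO call was lost with the lower index column alone (adjusted p = 0.076) and with limma voom on recovered reads (0.064). Ier3 and Socs3 have 2 exons, and of protein-coding genes with 2 exons 10.6% are in the table, against 63.3% of those with 6 or more.

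**Figure D2:**
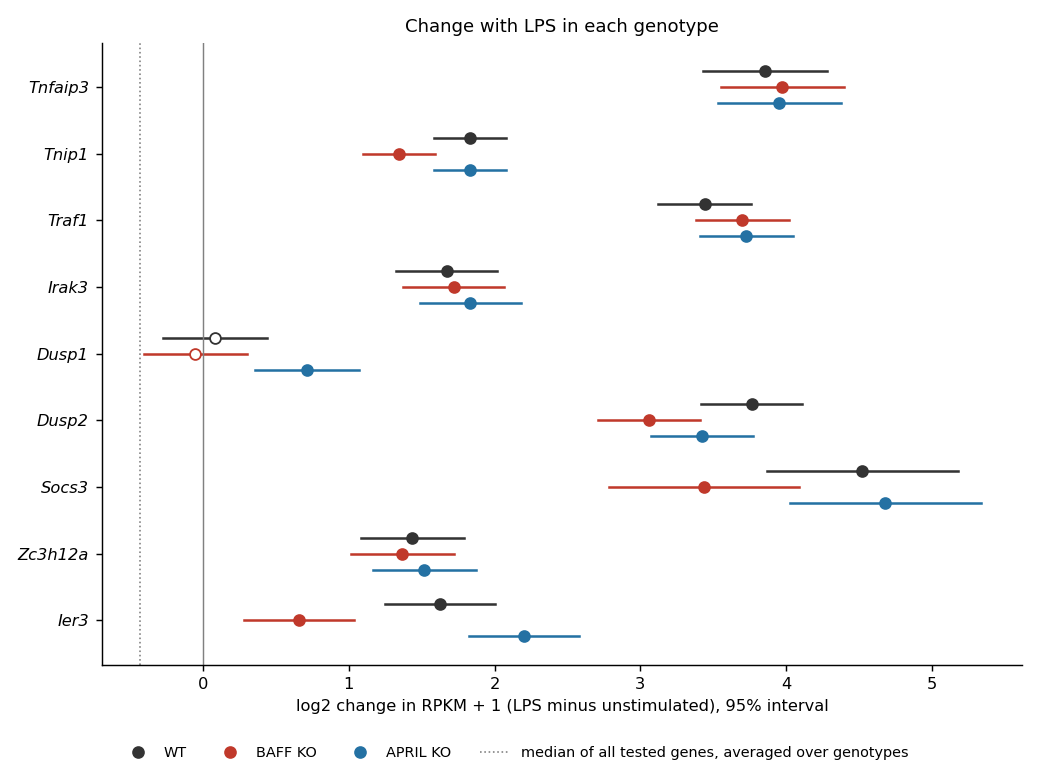
Change with LPS of each gene in each genotype on the log2(RPKM + 1) scale, with 95% intervals from limma. Filled points passed the threshold of adjusted p below 0.05 and open points did not. The dotted line is the median of all genes, -0.44. Dusp1 alone has open points, in WT and BAFF KO.

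The second comparison set the knockouts against WT with LPS. In BAFF KO 5 of 9 genes were lower and none was higher, where 4.35% of all genes were lower and 3.99% higher. The 9 genes were chosen with earlier results of these data known, so such shares are not an independent test. The median difference was -0.52 for the 9 genes and 0.02 for all genes. Ier3 differed by -1.20 ± 0.13 on the log2 scale (SE; limma adjusted p = 0.0028), a BAFF KO mean that was 41.2% of the WT mean in RPKM. Socs3 differed by -1.06 ± 0.23 (adjusted p = 0.034), at 47.4% of WT, and Dusp1 by -0.88 ± 0.13 (adjusted p = 0.0072), at 52.8%. Tnip1 differed by -0.70 ± 0.09 (adjusted p = 0.0043), at 61.1%, and Zc3h12a by -0.52 ± 0.12 (adjusted p = 0.045), at 68.9%. The 4 others were not called. Their differences were -0.15 for Tnfaip3 (95% interval -0.49 to 0.20), -0.18 for Dusp2 (-0.47 to 0.10), -0.19 for Irak3 (-0.47 to 0.10) and -0.26 for Traf1 (-0.52 to 0.0017).

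Over 18 alternatives Tnip1 was called in 18, Ier3 in 17, Dusp1 in 16, Socs3 in 10 and Zc3h12a in 8. The number of genes called was 3 without library 14, 15, 20 or 21 and 2 without library 17. Without library 17 Dusp1 had an adjusted p of 0.059, Socs3 of 0.14 and Zc3h12a of 0.18 in limma. With the lower index column of each library alone, which held 1649338 to 1942218 reads, Tnip1 was the 1 gene called.

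Neutrophil, monocyte and muscle markers moved with this comparison. Of 10 neutrophil markers tested, 7 were higher in BAFF KO than in WT with LPS and none was lower. Of 8 muscle markers 7 were lower, and of 4 B cell markers 1 was lower. Of 7 monocyte markers 3 were higher and 1 lower, also under median ratio scaling. Of the 8 macrophage markers 1 was higher and 1 lower. Their part in the differences of the 5 genes was not tested.

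APRIL KO against WT with LPS gave none of 9 genes in limma, where 0.211% of all genes were called in either direction. At an unadjusted p below 0.05 there was 1 of 9 genes, beside 15.5% of all genes. It was Irak3, with a difference of 0.39 ± 0.12 (SE; limma adjusted p = 0.23). The fit with limma voom on recovered reads also called 0. With the 18 columns as separate samples, which takes the columns of a library for replicates, Irak3 was called (adjusted p = 0.029). For the 5 genes lower in BAFF KO the APRIL KO differences had 95% intervals of -0.47 to 0.14 for Ier3, -0.57 to 0.50 for Socs3, -0.50 to 0.08 for Dusp1, -0.14 to 0.27 for Tnip1 and -0.05 to 0.52 for Zc3h12a. Both comparisons use the same 2 WT libraries. Of 8 muscle markers 3 were lower in APRIL KO than in WT with LPS, or 4 under median ratio scaling. At an unadjusted p below 0.05 there were 8 of the 8. None of 10 neutrophil markers was called in limma, and 3 had an unadjusted p below 0.05. The part of these markers in this comparison was not tested.

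**Figure D3:**
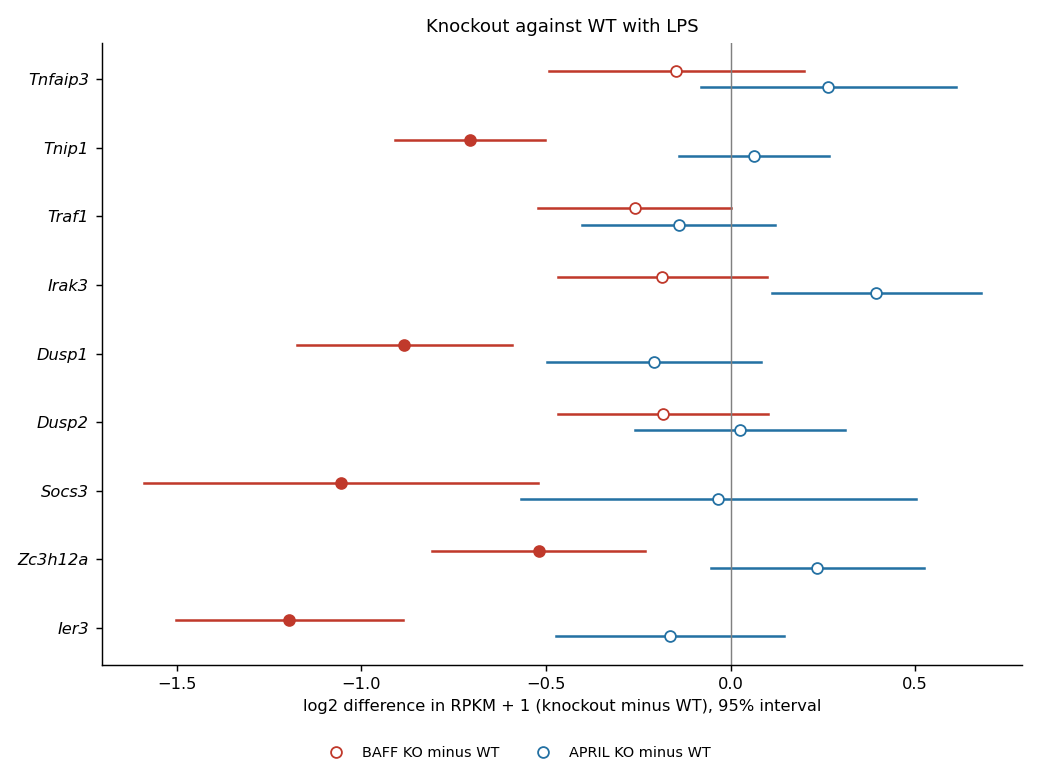
Difference of each knockout from WT with LPS on the log2(RPKM + 1) scale, with 95% intervals from limma. Filled points passed the threshold of adjusted p below 0.05. In BAFF KO 5 genes are filled, all lower, and no APRIL KO point is filled.

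Set directly against APRIL KO with LPS, BAFF KO was lower for 6 of 9 genes, where 3.06% of all genes were lower. The median difference was -0.68 for the 9 genes and 0.02 for all genes. The differences were -1.03 for Ier3 (limma adjusted p = 0.0063), -1.02 for Socs3 (0.046), -0.77 for Tnip1 (0.004), -0.76 for Zc3h12a (0.015), -0.68 for Dusp1 (0.023) and -0.58 for Irak3 (0.037). Tnfaip3 differed by -0.41 (adjusted p = 0.18), Dusp2 by -0.21 (0.42) and Traf1 by -0.12 (0.64). The count fell to 0 without library 17, where 6 adjusted p-values lay between 0.05 and 0.22. It was 3 without library 18, 1 without library 20 and 2 without library 21. Of 10 neutrophil markers, 6 were higher in BAFF KO than in APRIL KO. None of the 8 muscle markers was called in limma (0 at an unadjusted p below 0.05, beside 19.4% of all genes). Of 4 B cell markers 2 were lower, of 7 monocyte markers 2 were higher and 1 lower, and of 8 macrophage markers 1 was higher and 2 lower. Their part in these differences was not tested.

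Whether the LPS response itself differed was tested as the difference between responses. None of 9 genes passed for BAFF KO minus WT in limma, where 0.443% of all genes did, and limma voom called 0. At an unadjusted p below 0.05 there were 4 of 9, beside 21.5% of all genes. They were Socs3 at -1.08 (adjusted p = 0.18), Ier3 at -0.97 (0.093), Dusp2 at -0.70 (0.13) and Tnip1 at -0.49 (0.14). With the 18 columns as separate samples 3 were called (Tnip1, Socs3 and Ier3). The difference for Dusp1 was -0.13 (95% interval -0.64 to 0.37) and for Zc3h12a -0.07 (-0.57 to 0.43). None passed for APRIL KO minus WT, where 0.0% of all genes did, and limma voom called 0. At an unadjusted p below 0.05 there were 2 of 9 genes, beside 3.39% of all genes. They were Dusp1 at 0.63 and Ier3 at 0.58 (both adjusted p = 1.0 in limma).

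Without stimulation each genotype had 1 library, so no test was made, and a gene was counted when it was past 1.5-fold with the columns of the 2 libraries apart. Socs3 was below 1 RPKM and was not counted. Shares are of genes at 1 RPKM or more in either library, 9496 for BAFF KO and 9578 for APRIL KO. In BAFF KO 2 of 8 genes passed (16.8% of those genes): Dusp1 was 1.72-fold lower than in WT and Dusp2 1.81-fold higher. In APRIL KO 3 of 8 passed (9.8% of those genes): Ier3 was 1.85-fold lower, Dusp1 1.83-fold lower and Dusp2 1.54-fold higher. Dusp2 rested on 11 reads in WT, 20 in BAFF KO and 18 in APRIL KO. Tnip1, Tnfaip3, Irak3, Zc3h12a and Traf1 were within 1.5-fold in both knockouts. Both knockouts were set against the same WT library, 13. Muscle markers summed to 191 RPKM in library 13, 15.8 in library 16 and 29.4 in library 19. Neutrophil markers summed to 3070, 5780 and 2735 RPKM in the same order. The part of these markers in the unstimulated differences was not tested.

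The other genes of these pathways were taken from 11 lists of 146 genes, of which 126 were tested. These lists too were chosen with earlier results of these data known. With LPS 63 of the 126 were higher (against 18.1% of all genes) and 43 lower (34.1%, against 62.1%), or 72 and 22 under median ratio scaling. In BAFF KO against WT with LPS 5 were higher (3.97%, near the 3.99% of all genes) and 16 lower (12.7%, against 4.35%). In APRIL KO against WT none passed in limma, with 22 of 126 at an unadjusted p below 0.05, beside 15.5% of all genes. In BAFF KO against APRIL KO 1 was higher and 18 lower (14.3%, against 3.06% of all genes).

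All 11 IκB proteins and NF-κB subunits rose with LPS, with the largest rises at 3.55 for Nfkbiz and 3.03 for Nfkbie on the log2 scale. In BAFF KO against WT, Bcl3, an atypical IκB protein, was lower (-0.69, limma adjusted p = 0.014), Nfkb2 was lower (-0.36, 0.043) and Rela, the main activating subunit, was higher (0.41, 0.046). Under median ratio scaling 1 of the 11 was higher and 1 lower. Of 11 A20 partners and other ubiquitin regulators, 5 rose and 4 fell with LPS, with Usp18, an ISG15 protease, at 4.04 and Otulin, a deubiquitinase, at -0.90 the largest in each direction, and under median ratio scaling 6 rose and 1 fell. Tnip3, which encodes another A20-binding protein, was 123.6 RPKM in WT, 69.0 in BAFF KO and 120.3 in APRIL KO with LPS, a difference of -0.83 in BAFF KO (adjusted p = 0.0018). Tnip2 was lower (-0.48, 0.042) and Ikbkg, which encodes the NEMO subunit, higher (0.61, 0.021). None of the 9 TRAF, cIAP and related adaptors passed for BAFF KO in limma. An unadjusted p below 0.05 was found for 5 of the 9, beside 25.2% of all genes. With LPS 6 of them rose, Birc3 by 1.69 and Tank by 1.64, and Tradd was lower (-0.38), with none lower under median ratio scaling.

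Of 9 tested genes of a list of SOCS and PIAS family members and the tyrosine phosphatases Ptpn1, Ptpn2 and Ptpn6, 4 rose and 3 fell with LPS, with Ptpn2 at 1.47 and Pias3 at -1.28 the largest in each direction, and 6 rose and 1 fell under median ratio scaling. None passed for BAFF KO against WT in limma, and 2 of 9 had an unadjusted p below 0.05, beside 25.2% of all genes. A list on IL-6 and IL-10 signalling to STAT3 had 9 tested genes, and it also held Csf3r, a receptor for another cytokine. Of the 9 genes, 5 rose and 3 fell with LPS, or 6 and 2 under median ratio scaling. Jak2 was 26.8 RPKM on average unstimulated and 236 in WT with LPS, an averaged change of 3.17. Stat3 changed by 1.96, while Il6ra changed by -2.09. In BAFF KO against WT, Tyk2, which encodes a JAK kinase, was higher (0.60, limma adjusted p = 0.016).

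Of 7 further dual-specificity phosphatases, 2 rose and 5 fell with LPS, or 2 and 1 under median ratio scaling. Dusp4 was 5.59 RPKM in WT, 1.73 in BAFF KO and 7.61 in APRIL KO with LPS, a difference of -1.26 in BAFF KO (limma adjusted p = 0.019). Of 15 MAP kinases, their activators and partners, 2 were lower in BAFF KO: Map2k3, a kinase upstream of p38, at -0.91 (0.0018) and Map3k8, a kinase upstream of ERK, at -0.59 (0.038). A list of 13 genes near the receptor held activators (Tlr4, Cd14, Myd88, Tirap and Ticam2), IRAK kinases and inhibitors. Of these 3 were lower and none higher, or 2 lower under median ratio scaling. They were Cd14, the LPS co-receptor, at -0.90 (0.0087), Il1rn, the interleukin-1 receptor antagonist, at -0.85 (0.0027), and Myd88, the adaptor, at -0.33 (0.0465), which was named after its values were seen. Of 14 other regulators of macrophage activation, Ptpn22, a tyrosine phosphatase, was lower (-1.27, 0.0047) and Inpp5d, the lipid phosphatase SHIP1, higher (0.47, 0.037).

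The libraries hold steady-state levels, so whether mRNA decay differed was not tested. Of 15 decay and stability factors none passed for BAFF KO against WT in limma. An unadjusted p below 0.05 was found for 0 of the 15, beside 25.2% of all genes. With LPS, Malt1, the protease that cleaves Regnase-1, rose by 3.02 and Zfp36l2, which encodes a relative of TTP, fell by 2.03. Of 13 transcripts that TTP or Regnase-1 is known to bind, all 13 rose with LPS. In BAFF KO against WT 5 were lower and 1 higher. Il1b was 2395 RPKM in WT and 371 in BAFF KO with LPS, a difference of -2.69 (limma adjusted p = 2.4e-05). Ccl2 was 310 and 123 RPKM (-1.33, adjusted p = 0.0018). Il12b was 51.7 and 149 RPKM, higher by 1.51 (0.00054). Il6 differed by -0.53 and was not called (adjusted p = 0.065). Il10 was named after its values were seen, because IL-10 is a known inducer of Socs3. Its difference in BAFF KO was -1.19 ± 0.12 (SE; adjusted p = 0.0018). Whether Il10 had a part in the Socs3 difference was not tested.

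**Figure D4:**
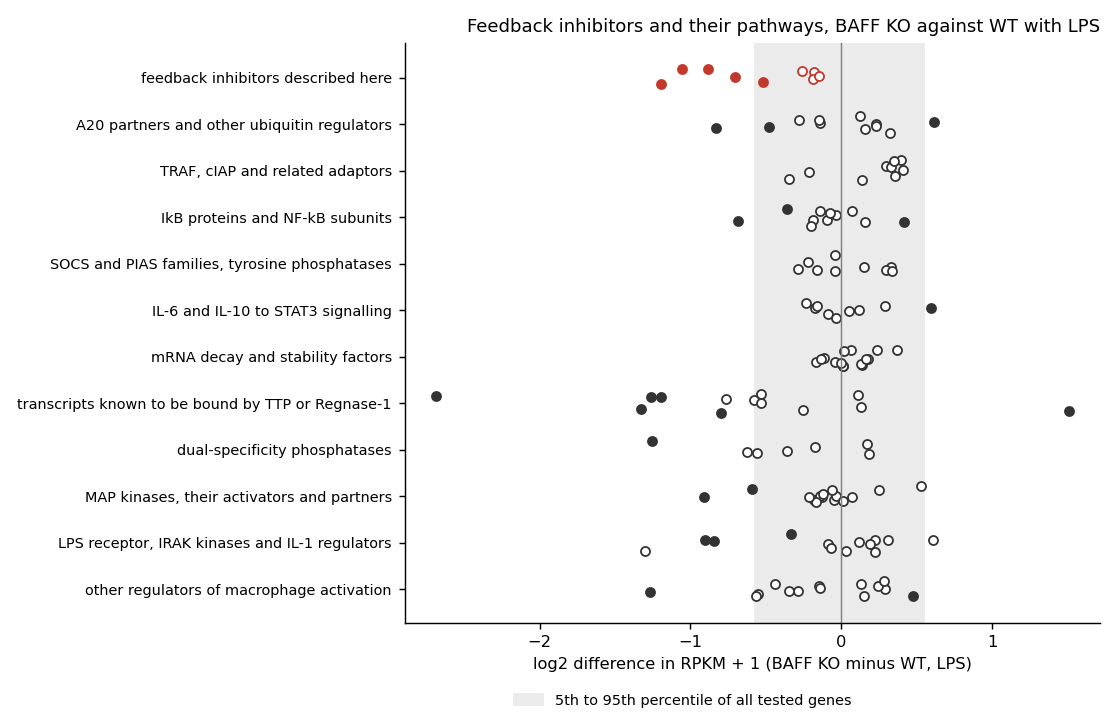
Difference of BAFF KO from WT with LPS on the log2(RPKM + 1) scale for the 9 genes described here (red) and for 11 lists of other pathway genes (black). Each point is a gene, filled where adjusted p was below 0.05. The grey band spans the 5th to 95th percentile of all 9934 genes, and 4 of the 5 red filled points lie left of it.

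The genes nearest to each profile were found by the Euclidean distance over the 9 libraries, after each log2 profile was centred on its own mean. Tnfaip3 was nearest to Mx1 and Ifi209, Tnip1 to Gm13767 and Gm13768, and Traf1 to A530032D15Rik and Nfkbiz. Irak3 was nearest to Tnfrsf1b and Ptprj, Dusp1 to Gpc1 and Coq10b, and Dusp2 to Mndal and Irf7. Socs3 was nearest to Slc28a2 and Tnfsf9, Zc3h12a to Map3k8 and Gm13767, and Ier3 to Cd14 and Oaf. The distance was smallest for Traf1 (0.251) and Zc3h12a (0.266) and largest for Socs3 (0.697). The profiles share the 9 libraries and the LPS step, and the likeness is a description.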

How the data were processed

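RNA of 9 libraries (18 columns) was sequenced, and the submitters' processing notes name STAR and the build mm10. Which counter, annotation and gene filter were used is not stated. The authors deposited RPKM values. Reads were recovered from them. For 100% of the genes a step was found that made the values whole, once 1 read added to each count was allowed for. The tolerance was 0.01 reads, plus a small part of the count in genes without a value at 0 reads. Values at 0 reads sat on a floor for each gene. Symbols were given to 11084 of 11164 identifiers.

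The 2 columns of a library were averaged, log2(RPKM + 1) was taken, and genes averaging 1 RPKM or more in any group were kept. limma 3.58.1 (R 4.3.3) gave the tests (6 group means, 3 residual degrees of freedom, trend, 2-sided), with Benjamini-Hochberg adjustment over 9934 genes and a threshold of 0.05. A group with 1 library is assumed to vary like the others. The fit was tested on simulated data with the same normal spread for every gene and library. That checks the code and not its error rates for genes with few reads. The members and gene lists were chosen with earlier results of these data known. The text names every member and the nearest profiles. From each pathway list, up to 2 called genes with the largest rise and 2 with the largest fall were picked per comparison. Some genes picked for the LPS comparison are not named, and Il6 is also given for BAFF KO, where it was not called. Other settings tried were leaving the filter out, a pseudocount of 0.1, quantile normalization, median ratio scaling, columns (18) as samples, either index column alone, a replicate block, each library left out and, added after seeing the data, limma voom on recovered reads.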

Additional observations from a re-analysis of the deposited data

How the results depend on the processing

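The 81 results of single genes were recomputed under 18 alternatives, which gave 1395 values where a fit was possible. Of these, 59 lost their call, 7 gained one and 32 changed sign. None of the 32 belonged to a called result, and their size was at most 0.361 on the log2 scale. Of the lost calls, 51 were in comparisons between genotypes with LPS. The cause was not tested. Read numbers were lowest for unstimulated Socs3 (4 to 6), unstimulated Dusp2 (11 to 20) and Ier3 (24 to 156).

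The number of genes called for BAFF KO against WT with LPS was 5 and became 3 without the filter, 1 with the lower index column, and 2 to 5 when 1 library was left out. For BAFF KO against APRIL KO it was 6 and became 1 with the lower index column and 0 to 6 when 1 library was left out. With 18 columns as samples it was 1 for APRIL KO against WT and 3 for the difference of the LPS response in BAFF KO.

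Whether the replicate numbers pair the LPS libraries of different genotypes is not in the labels. Deviations from the group means correlated over genes at -0.18 for WT and BAFF KO, -0.102 for WT and APRIL KO and 0.12 for BAFF KO and APRIL KO. The 2 LPS libraries of a genotype deviate by equal amounts in opposite directions, so these correlations cannot decide it. With the replicate block 3 genes were called for BAFF KO against WT and 4 for BAFF KO against APRIL KO, and the averaged LPS call of Dusp1 was lost.

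Changed signs, log2 scale. The Dusp1 response in BAFF KO was 0.361 with median ratio scaling, 0.113 with quantile normalization, 0.016 with the higher index column and -0.123 to 0.018 with 1 library left out. The Dusp1 response in WT was -0.037 to 0.196 with 1 library left out, Tnfaip3 in BAFF KO against WT -0.323 to 0.028, and Traf1 in BAFF KO against APRIL KO -0.244 to 0.007. In APRIL KO against WT, Dusp2 was -0.001 with 18 columns, -0.185 with the higher index column, -0.041 with limma voom and -0.036 to 0.087 with 1 library left out. Socs3 was 0.046 with the higher index column and -0.202 to 0.135 with 1 library left out, and Tnip1 -0.019 to 0.144. In the response difference of BAFF KO, Irak3 was -0.070 with quantile normalization and -0.084 to 0.178 with 1 library left out, Zc3h12a 0.108 with the lower index column and -0.202 to 0.068, and Tnfaip3 -0.054 to 0.297. In that of APRIL KO, Tnip1 was -0.005 with median ratio scaling, -0.021 with the lower index column and -0.081 to 0.082 with 1 library left out. Irak3 was -0.114 with the lower index column and Zc3h12a -0.018 with the higher one. With 1 library left out, Tnfaip3 was -0.076 to 0.275 and Socs3 -0.011 to 0.326.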
